A study of Mus musculus with 12 samples.

Results

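The baseline transcriptome of cultured mouse aortic smooth muscle is described from the 3 libraries of control cells, out of 12 libraries in the series. The 3 were chosen by their label alone, wild-type cells with basal medium as treatment, and no contrast with another group was made. The cells came from thoracic aortas of C57BL/6J mice aged 5 to 6 weeks, from which endothelium and adventitia had been taken off. They grew out of tissue pieces over 5 to 7 days in DMEM with 10% fetal bovine serum and were used at passages 5 to 8. The other 9 libraries were from the same cell preparation protocol with 3.0 mM sodium phosphate for 7 days, either alone, with an empty lentiviral vector or with an αKlotho vector. Whether the control cells received any virus, and whether the 3 libraries came from separate animals or cultures, is not given, so their spread may be technical. Each library was 1 bulk RNA sample, in which fewer cells of a type and less RNA per cell cannot be told apart.

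Vascular smooth muscle cells form the media of the aorta, where they contract and lay down collagen and elastic fibres. Contractile genes are driven by serum response factor and its coactivator myocardin, which act at short promoter elements named CArG boxes. In culture with serum such cells are known to lose part of the contractile programme and to gain matrix, migration and stress genes, a change known as phenotypic modulation.

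All levels are FPKM, fragments per kilobase of exon scaled to the size of the library, and are listed for control libraries 1, 2 and 3 in that order. A pair of values joined by "to" gives the lowest and the highest of the 3 libraries. Recovered depth was 17108000, 17328000 and 17162000 fragments. Library 2 stood apart at the bottom of the range: 832 genes had between 1 and 5 fragments, against 3659 in library 1 and 4063 in library 3. Above 20 fragments the 3 were alike, with 12265, 12248 and 12290 genes. A mean of at least 1 FPKM was reached by 10744 of 25745 genes, 41.7%, or by 10710 without library 2, and a mean of at least 10 FPKM by 4138. Counts of list members at a mean of at least 1 FPKM are to be read beside that share. Means of at least 100 FPKM were found for 510 genes and of at least 1000 FPKM for 29.

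Of the 3 genes that stand for the smooth muscle label, Acta2 and Mgp were abundant and Tagln was low. Acta2, the smooth muscle α-actin, was at 178, 763 and 952, a mean of 631 ± 404 FPKM (SD, n = 3) and rank 59 of all genes. Library 1 held less of it than libraries 2 and 3, which lay close together. Mgp, the matrix Gla protein, an inhibitor of calcification that is plentiful in arteries, was at 1610.4, 1009 and 903 (1174 ± 381 FPKM), highest in library 1. Tagln, which encodes the actin-binding protein SM22α, was at only 1.85, 9.87 and 6.16 (5.96 ± 4.01 FPKM), again lowest in library 1. Tagln shares 67.9% of its exon bases with exons of Gm48529 and Pcsk7 on the opposite strand, and whether counting used strand is not given. More than 50% of the exon bases were shared in 0.9798% of the genes averaging at least 1 FPKM. Gm48529 itself was at 0.207 to 0.546 and Pcsk7 at 5.68 to 8.58, and the Tagln level is uncertain for this reason. In the GRCm38 annotation Acta2 lies on chromosome 19 from 34241090 to 34255590, Mgp on chromosome 6 from 136872435 to 136875823 and Tagln on chromosome 9 from 45929619 to 45936058, all on the minus strand.

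The most abundant transcripts encoded secreted and matrix proteins, the translation machinery and small binding proteins. The 10 highest genes held 8.31% of the summed mean level, the 50 highest 22.2% and the 100 highest 30.96%. Serpina3n, a secreted serine protease inhibitor of the acute-phase response, was first in mean level at 6679.5, 2377 and 4607. It was first in libraries 1 and 3, while in library 2 Eef1a1, mt-Co1, Rplp1 and S100a11 stood above it. Eef1a1, the translation elongation factor 1α, was at 3219 to 3886, and mt-Co1, a cytochrome oxidase subunit of the mitochondrial genome, at 2786 to 3029. The ribosomal stalk proteins Rplp1 and Rplp0 had means of 2893 ± 444 and 1455 ± 108 FPKM, and Eef2, which moves the ribosome along, 1516 ± 207. Ribosomal protein genes, 86 by symbol, made up 9.11%, 7.65% and 7.595% of the summed values.

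Small calcium-binding, iron-binding and metal-binding proteins formed the next group. S100a11 and S100a6, calcium sensors of the S100 family, had means of 2365 ± 150.4 and 1454 ± 141 FPKM. The ferritin chains Fth1 and Ftl1, which store iron, were at 1618 to 2839 and at 1325 to 1936. Fth1 was highest in library 1 and Ftl1 in library 2. Mt1, a metallothionein that binds zinc and copper, was steady at 1625 to 1813, and Selenop, the secreted selenium carrier, was at 871 to 1536. Anxa1, a membrane-binding annexin that dampens inflammation, had a mean of 1602 ± 176 FPKM, and Lgals1, the secreted lectin galectin-1, one of 1133 ± 28.4. B2m, the light chain of class I antigen-presenting molecules, was at 593 to 1661, and the membrane protein Ifitm3, which restricts virus entry, at 796 to 1708. Both were highest in library 1 and lowest in library 2. Further genes among the 30 highest encode matrix, secreted and cytoskeletal proteins and are described with their groups, apart from mt-Nd1, a subunit of respiratory complex I, at 829, 1221 and 832.

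**Figure D1:**
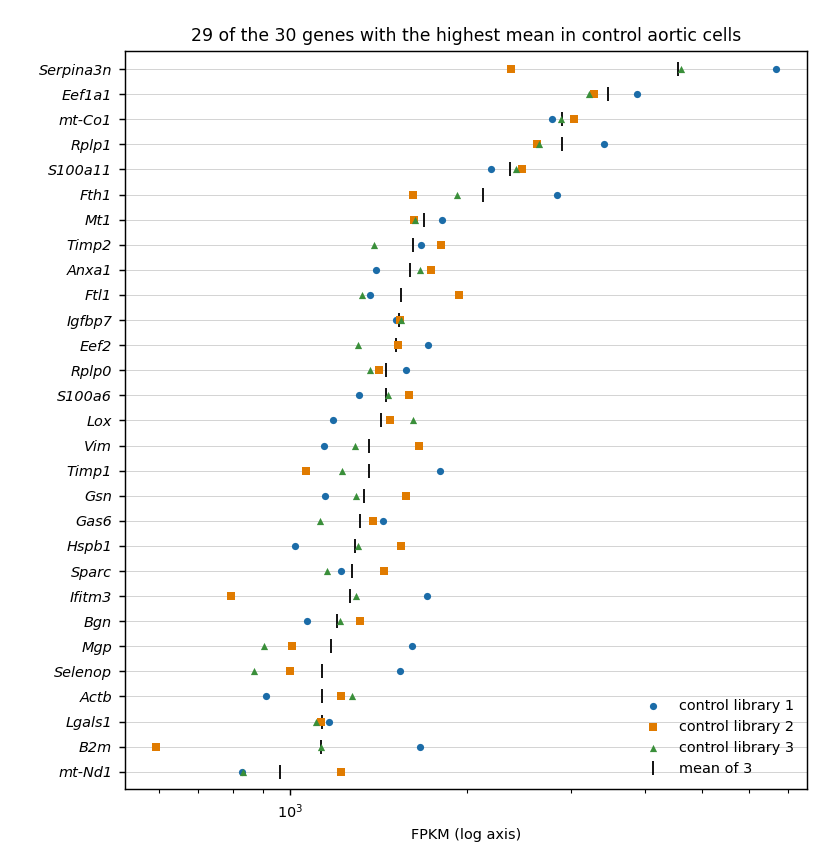
FPKM on a log axis of 29 of the 30 genes with the highest mean over the 3 control libraries, one marker shape per library and a bar for the mean. Serpina3n runs from 2377 in library 2 to 6679.5 in library 1, while Igfbp7 differs by only 0.869% (coefficient of variation).

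The contractile apparatus was present but uneven between libraries. Of 36 listed contractile genes, 31 had a mean of at least 1 FPKM and 8 of at least 100 FPKM. The summed level of all 36 was 2246, 4203 and 4435 FPKM. Hspb1, the small heat shock protein that binds actin, was the highest at 1020.2, 1543 and 1307, followed by Acta2. Dstn, which severs actin filaments, was at 229, 365 and 397. The actin cross-linkers Actn1 and Flna were at 181 to 250.5 and at 171 to 248. These general actin regulators varied by less than 2-fold between libraries. Myl9, the regulatory light chain of smooth muscle myosin, was at 60.1, 229 and 255. Csrp1, a LIM protein of the actin cytoskeleton, was at 123, 184 and 217. The tropomyosin Tpm2 was at 48.8, 135 and 147. Cald1, the actin- and myosin-binding caldesmon, was at 56.1, 104 and 96.9. Myl9 and Tpm2 differed by more than 2-fold between library 1 and the others, and Csrp1 and Cald1 by less.

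The genes held to be most specific to differentiated smooth muscle had lower levels and larger differences. Actg2, the enteric smooth muscle γ-actin, was at 11.9, 69.5 and 166. Cnn1, which encodes calponin, was at 4.23, 30.8 and 60.3. Myh11, the smooth muscle myosin heavy chain, was at 1.61, 23.8 and 40.8, which is 25.4 times as much in library 3 as in library 1. Lmod1, which nucleates actin filaments in smooth muscle, was at 12.7, 45.1 and 42.7. Smtn, which encodes smoothelin, was steadier at 7.86, 9.99 and 11.4. At the low end were Mylk, the myosin light chain kinase (0.311 to 1.86), Des, the muscle intermediate filament desmin (0.483 to 2.198), and Kcnmb1, a potassium channel subunit (0 to 0.181). Among actins as a whole, the cytoplasmic forms Actb (911 to 1273) and Actg1 (493 to 570.4) stood above all others in library 1, where Acta2 was low. In libraries 2 and 3 Acta2 stood above Actg1 but below Actb. The skeletal form Acta1 reached at most 0.266 FPKM, and the cardiac form Actc1 was at 0 fragments in every control library, which allows at most 0.108 FPKM in library 1 from counting error.

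All 31 contractile genes averaging at least 1 FPKM were lowest in library 1. Over all 10744 genes at that level, 33.5% were lowest in library 1. The filter used the mean of the same libraries, so Mylk, Des and Myocd, below 1 FPKM in library 1, passed through the others. Of the 5 listed genes below the filter, Synpo2, Ldb3 and Aoc3 were also lowest in library 1. Pdlim3 was highest in it (0.0454, 0 and 0.0226), and Kcnmb1 was at 0 in libraries 1 and 2. The list was chosen with earlier results of these data known. All 31 were lowest in library 1 also after the libraries were rescaled to equal sums or by the median ratio over genes. The factors for equal sums were 3.22, 3.44 and 3.42, too alike to change these orders. Macrophage markers moved the other way, with a summed level of 177, 36.4 and 33.7 FPKM over 16 genes, while Ptprc, the leukocyte antigen, was at most 0.0223 FPKM. The defining endothelial gene Cdh5 was highest in library 3 (0.918, 0.783 and 4.51), as were most of the 16 endothelial markers, whereas Flt1 was lowest there (2.31, 2.93 and 2.21). The summed level of the 16 was 127, 134 and 115 FPKM. Eng, endoglin (122, 126 and 98.5), made up 92.2% of its mean, so the sum does not show the order of the other markers. The part of these cells, or of fibroblasts, in the contractile difference was not tested.

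Promoter windows are shown for 3 contractile genes because Acta2, Myl9 and Vcl, the last encoding the adhesion protein vinculin (27.4, 52.996 and 49.4), were each at least 1.804 times higher in libraries 2 and 3 than in library 1 and hold a CArG box. They are RefSeq sequences of GRCm38.p6, 5′ to 3′ on the gene's strand, with bases that match the box in capitals. Positions are counted from the annotated start site. Acta2 is shown at chr19:34255374-34255483 on the minus strand, from -110 to -1. Myl9 is shown at chr2:156775274-156775403 on the plus strand, from -190 to -61. Vcl is shown at chr14:20929148-20929207 on the plus strand, from -250 to -191.
Acta2: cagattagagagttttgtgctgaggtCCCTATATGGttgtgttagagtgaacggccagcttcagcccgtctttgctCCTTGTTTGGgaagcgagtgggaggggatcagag
Myl9: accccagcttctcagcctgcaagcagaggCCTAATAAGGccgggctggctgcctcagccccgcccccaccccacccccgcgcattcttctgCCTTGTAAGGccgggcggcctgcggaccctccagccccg
Vcl: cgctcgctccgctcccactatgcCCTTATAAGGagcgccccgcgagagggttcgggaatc
The box was searched as C, C, 6 letters and G, G, a pattern that reads alike on both strands. With all 6 inner letters A or T it was found in 1.63% of all 32851 promoter windows of 300 bases, and with at most 1 other inner letter in 9.98%. Of the 28 contractile genes with an entry, 3 and 6 genes held it in these forms. The 3 genes shown were picked with their values known. Not shown are Ldb3 (0.22, 0.482 and 1.01), which has a strict box and was also lowest in library 1, and Dstn and Pdlim3, which have looser ones. Acta2 has 2 boxes of the looser form, at -84 to -75 and at -34 to -25. Myl9 has a strict box at -161 to -152 and a looser one at -99 to -90, and Vcl a strict box at -227 to -218. Such matches describe the sequence only.

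Several genes listed for modulated smooth muscle were among the highest of all. Of 19 listed genes, 17 had a mean of at least 10 FPKM and the summed level of all 19, 6099.7, 6576 and 6155 FPKM, was larger than that of the contractile genes in every library. Such sums depend on which genes were listed. Mgp, Spp1 and Tnfrsf11b are also on the bone and cartilage list, and Ly6a, Dcn, Cd34 and Lum on the fibroblast list. These levels therefore do not single out modulated smooth muscle. Vim, the mesenchymal intermediate filament vimentin, was at 1143 to 1657, and Fn1, fibronectin, at 617 to 1049.8. Ly6a, the stem cell antigen Sca1, was at 438 to 619, and Spp1, the secreted phosphoprotein osteopontin, at 16.4 to 77.4. Ly6a varied little, whereas Spp1 was lowest in library 2. Lum, the proteoglycan lumican, was at 1.55 FPKM in library 1 and at 0 fragments in the others.

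Most genes of bone and cartilage fate averaged below 10 FPKM in basal medium, as did most of all genes. Of 22 listed genes in the table, 12 had a mean of at least 1 FPKM, where 41.7% of all genes did. A mean of at least 10 FPKM was found for 6 of the 22, against 4138 of all 25745 genes. Both shares were above those over all genes. Mgp made up 90.1% of the summed mean level. Runx2, the master factor of bone, was at 1.06 to 1.24, and Sox9, that of cartilage, at 13.1 to 22.3. Alpl, tissue-nonspecific alkaline phosphatase, which degrades the mineral inhibitor pyrophosphate, was at 0.478, 0.315 and 0.246. Ank, which exports pyrophosphate, was at 16.3, 18.3 and 18.2. The sodium-phosphate cotransporters Slc20a2 and Slc20a1 were at 12.3 to 16.5 and at 2.92 to 5.22. Bmp4, a bone morphogenetic protein, was at 5.43 to 21.02 and Tnfrsf11b, the decoy receptor osteoprotegerin, at 3.15 to 4.69.

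**Figure D2:**
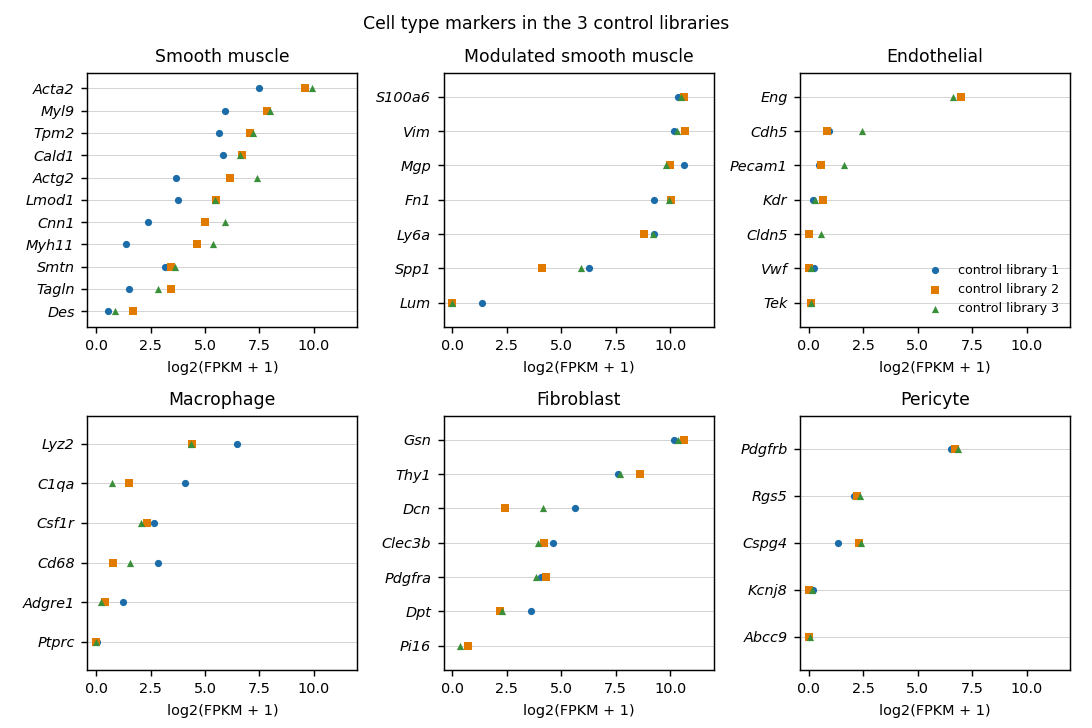
Levels as log2(FPKM + 1) of markers of smooth muscle, modulated smooth muscle and 4 other cell types, one marker shape per control library. Library 1 lies to the left for smooth muscle genes such as Myh11 (1.61 FPKM) and to the right for macrophage genes such as C1qa (15.8 FPKM).

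Markers of the other cell types of the aortic wall were low, with fibroblast genes as the exception. Macrophage markers were detected in all libraries and highest in library 1. Of 16 markers, all 10 with a mean of at least 1 FPKM were highest in library 1, where 39.1% of all genes were. The mean includes library 1, so this count is partly set by the filter. Tyrobp (3.86, 0.433 and 0.175) and Fcer1g (2.94, 0 and 0.0667) passed it through library 1 alone. The complement gene C1qc (7.39, 1.703 and 0.151) would not average 1 FPKM without library 1 either. Lyz2, the macrophage lysozyme, was at 88.7, 20.4 and 19.4, and the complement genes C1qa and C1qb were at 0.672 to 15.8 and at 1.12 to 19.99. Csf1r, the receptor for macrophage growth factor, was at 3.19 to 5.31, Cd68 at 0.735 to 6.23 and Adgre1, which encodes F4/80, at 0.17996 to 1.35. Ptprc, the pan-leukocyte antigen CD45, was near 0 in all 3, at most 0.0223 FPKM.

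Endothelial markers were low except for Eng, endoglin, which smooth muscle also expresses and which was at 122, 126 and 98.5. Cdh5, the endothelial cadherin, was at 0.783 to 4.51, Pecam1, CD31, at 0.375 to 2.02, and Emcn, endomucin, at 0.335 to 2.54. These 3 were highest in library 3, and in libraries 1 and 2 each lay under 1 FPKM. Also highest in library 3 were Tie1 (0.143, 0.657 and 1.51), Esam (0.306, 0.201 and 1.18), Egfl7, Cldn5, Nos3, Sox17, Sox18 and Tek, several of them near 0. Eng and Flt1, a receptor for vascular endothelial growth factor (2.31, 2.93 and 2.21), were lowest in library 3, and Erg, Kdr and Vwf were not highest there. Most of the markers were thus highest in library 3, but they shared no single order. Kdr, the main receptor for vascular endothelial growth factor, was at 0.129, 0.556 and 0.226, highest in library 2. Vwf, von Willebrand factor, was at 0.175, 0 and 0.0834, highest in library 1. Tek was at 0.0248 to 0.0866 and Cldn5, an endothelial claudin, at 0 to 0.494. The summed level of the 16 endothelial markers was 127, 134 and 115 FPKM, of which Eng made up 92.2% of the mean.

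Fibroblast markers were high, 14 of 18 with a mean of at least 1 FPKM, at a summed level of 2656, 3005 and 2649 FPKM. Gsn, the actin-severing gelsolin, was at 1145 to 1574, Thy1, a surface glycoprotein, at 196 to 385, and Serpinf1, an antiangiogenic serpin, at 169 to 219.8. Ly6a, Gsn and Thy1 are also known in modulated smooth muscle. Pdgfra, the receptor held to mark fibroblasts, was at 13.5 to 18.6, Clec3b, tetranectin, at 14.04 to 23.5, and Cd34 at 10.99 to 39.4. Dcn, the proteoglycan decorin, was at 4.31 to 49.2, Dpt, dermatopontin, at 3.58 to 11.3, and Pi16, a marker of adventitial progenitors, at 0.266 to 0.662. Dcn, Dpt and Cd34 were highest in library 1, whereas Pdgfra differed little. Of the 14 markers averaging at least 1 FPKM, 9 were highest in library 1, where 39.1% of all genes were, and 5 in library 2.

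Pericyte markers were low except for Pdgfrb, given with the receptors, and Ndufa4l2, a mitochondrial protein induced by low oxygen (68.1, 25.3 and 32.2). Rgs5, a regulator of G protein signalling, was at 3.202 to 4.01 and Cspg4, the proteoglycan NG2, at 1.54 to 4.21. Kcnj8 and Abcc9, the subunits of the vascular ATP-sensitive potassium channel, were at 0 to 0.138 and at 0 to 0.0348. Sox10, a factor of Schwann cells, stood at 0.306 to 0.785, whereas Pmp22, a myelin protein also made by fibroblasts, was at 184 to 222. Fabp4, a fatty acid carrier of fat, endothelium and macrophages, was at 24.4, 27.2 and 30.6, while the fat cell genes Plin1 and Cidec were at 0 fragments in all 3 libraries. Mesothelial genes Upk1b, Msln and Upk3b were at 7.41 to 16.1, at 1.26 to 10.7 and at 2.84 to 7.93, all highest in library 2. Krt19, on the same list of epithelial and mesothelial markers, was lowest in library 2 (1.73, 0.716 and 1.73). From that list Wt1, Lrrn4 and Muc16 were at 0 fragments in all 3 libraries. Epcam and Cdh1, of epithelium, reached at most 0.107 and 0.0639 FPKM. No lymphocyte or striated muscle marker exceeded 2.99 FPKM in any library, the value of the troponin gene Tnnc1 in library 2, and the heart myosin Myh6 was at 0 fragments in each.

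The receptor tyrosine kinases were led by Axl, which binds Gas6. Of 51 such genes in the table, 32 had a mean of at least 1 FPKM, where 41.7% of all genes did, and 12 of at least 10 FPKM. Axl was at 262 to 311, and its ligand Gas6 was itself among the 30 highest genes at 1125 to 1442. Pdgfrb, the receptor for platelet-derived growth factor B that drives smooth muscle migration, was at 91.3, 105 and 116. In each library Axl stood above Pdgfrb and Pdgfrb above the collagen receptor Ddr1 (66.5, 71.9 and 90.3). The Wnt receptor Ryk was at 35.3 to 45.1, the fibroblast growth factor receptor Fgfr1 at 20.1 to 48.6, and the second collagen receptor Ddr2 at 23.8 to 37.1. These 3 overlapped between libraries, and Fgfr1 was lowest in library 2. Egfr, for epidermal growth factor, was at 9.73 to 11.4, Igf1r at 9.81 to 14.3 and Insr, the insulin receptor, at 3.35 to 3.54. Kit, the stem cell factor receptor, reached at most 0.131 FPKM.

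Among receptors for the TGF-β and BMP family, Eng was followed by the coreceptor Tgfbr3 (36.9 to 47.1), the type I receptor Acvrl1 (28.3 to 32.4) and the type II receptor Tgfbr2 (19.05 to 41.1). Tgfbr1, the type I receptor for TGF-β, was low at 1.601, 3.34 and 2.37, and in each library it lay below Acvrl1. The BMP receptors Bmpr1a and Bmpr2 were at 9.77 to 14.4 and at 4.196 to 7.54. The ligands Tgfb1, Tgfb2 and Tgfb3 were at 8.59 to 14.3, at 4.63 to 10.4 and at 17.5 to 32.7.

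Guidance, Wnt and Notch receptors were led by Plxnb2, a semaphorin receptor (108 to 121), and Unc5b, a netrin receptor (34.3 to 42.7). Fzd2 and Fzd7, receptors for Wnt proteins, were at 20.3 to 23.1 and at 16.8 to 23.5, and Smo, the transducer of Hedgehog signals, at 18.7 to 19.9. All 5 varied by less than 2-fold between libraries. Of the Notch receptors, Notch2 was at 6.18 to 8.27 and Notch3, the form known for arterial smooth muscle, at 1.89 to 4.57.

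Of 71 receptors for vasoactive mediators, 25 had a mean of at least 1 FPKM, where 41.7% of all genes did. F2r, the thrombin receptor, was the highest at 55.8 to 121, followed by the orphan receptor Gprc5b (29.8 to 50.6) and the lysophosphatidic acid receptor Lpar1 (27.3 to 36.9). Gpr39, a zinc-sensing receptor, was at 22.2 to 35.2 and Ackr3, a scavenger of the chemokine Cxcl12, at 14.9 to 40.5. Npr2, the receptor for C-type natriuretic peptide, was at 24.2 to 27.5 and Npr3, which clears natriuretic peptides, at 9.51 to 28.6. Some receptors of vasoconstrictors were low. The angiotensin receptors Agtr1a and Agtr1b were at 0.0628 to 0.249 and at 0.136 to 1.02, and the endothelin receptor Ednra at 0.169 to 1.94. The α-adrenergic receptor Adra1d was at 6.74 to 13.6 and the thromboxane receptor Tbxa2r at 9.99 to 17.4. Casr, the calcium-sensing receptor, was at 0 fragments in all 3 libraries, which allows at most 0.0372 FPKM in library 1.

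Integrins were dominated by Itgb1, the β1 chain shared by most matrix receptors, at 501, 777 and 696, which made up 62.9% of the summed mean level of 26 integrin genes. Itgb5, a partner of αv, was at 213 to 305, the fibronectin receptor chain Itga5 at 51.01 to 105 and Itgav at 32.1 to 42.6. Chains of differentiated smooth muscle were low, Itga8 at 2.06 to 6.97 and Itga7 at 1.11 to 1.71. None of the 12 integrins averaging at least 1 FPKM was highest in library 1, where 39.1% of all genes at that level were. The cytokine receptor chain Il6st, gp130, was at 113 to 176, Tnfrsf1a, the receptor of tumour necrosis factor, at 104 to 138 and Ltbr, for lymphotoxin, at 63.1 to 77. Other abundant surface proteins were Bsg, basigin (521 to 775), Cavin1, a coat protein of caveolae (369 to 585), the tetraspanin Cd63 (229.5 to 432) and the heparan sulfate proteoglycan Sdc4 (207 to 327).

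Of 41 channels and pumps in the table, 21 had a mean of at least 1 FPKM, where 41.7% of all genes did. Atp2a2, the calcium pump of the sarcoplasmic reticulum, was the highest at 58.004 to 70.2, then Piezo1, a mechanically gated channel (49.1 to 59.4), and Stim1, the calcium sensor of store-operated entry (35.1 to 43.8). Their partner Orai1 was at 11.9 to 16.2, and Pkd2, polycystin-2, at 21.5 to 22.5. Channels of the contractile state were near 0: Cacna1c, the L-type calcium channel, was at 0.0818 to 0.338 and Kcnma1, the large-conductance potassium channel, at 0 to 0.00344.

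**Figure D3:**
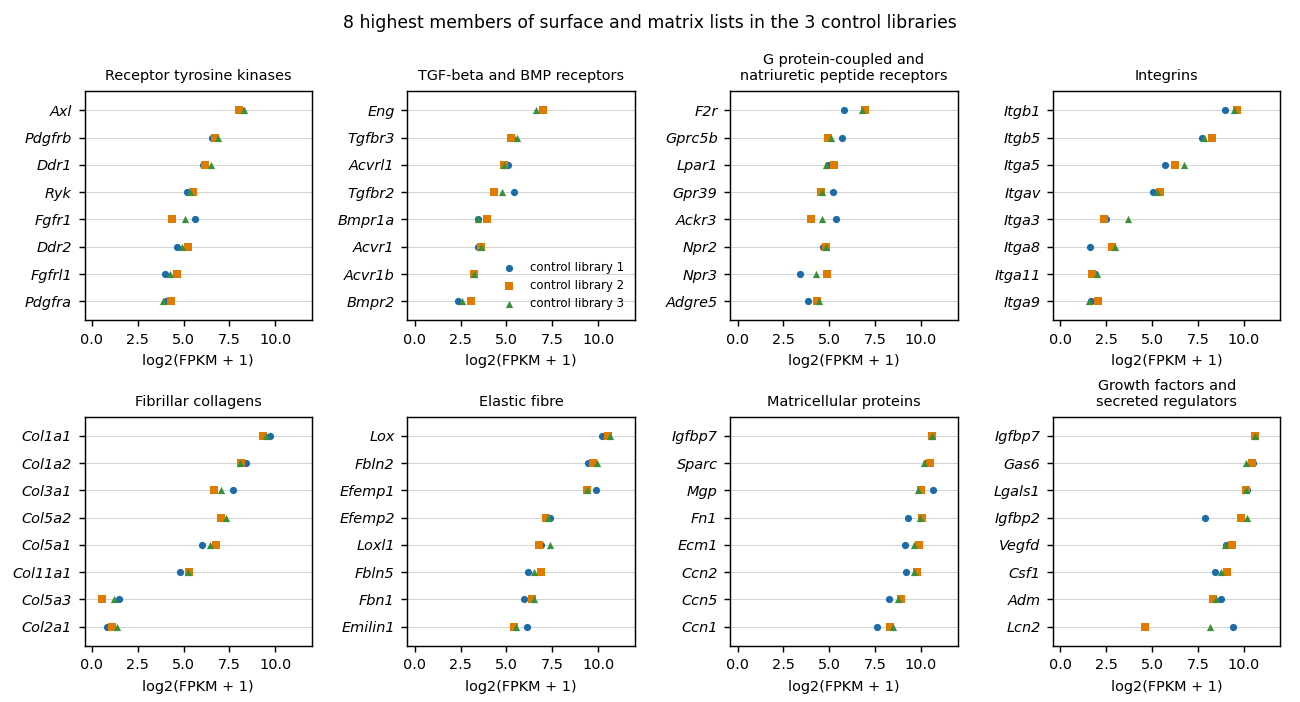
Levels as log2(FPKM + 1) of the 8 highest members of 4 receptor lists and 4 matrix or secreted lists, one marker shape per control library. Most genes hold their place between libraries, while Lcn2 spans 23.1 to 669.9 FPKM and Igfbp2 232 to 1163 FPKM.

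Secreted matrix made up several of the highest groups. Col1a1 and Col1a2, the chains of type I collagen, were at 641 to 843 and at 268 to 342, and Col3a1, of type III collagen, at 99.5 to 203. All 3 were highest in library 1. Col5a2, of type V collagen, was at 124, 129 and 159. The basement membrane collagens Col4a1 and Col4a2 were at 307 to 432 and at 268 to 383, both lowest in library 1. Col6a1, of beaded filaments, was at 98.4 to 139, and the basement membrane linkers Nid1 and Hspg2, nidogen and perlecan, at 148 to 166 and at 116 to 172. Lamb2 was the highest laminin chain at 121, 161 and 129. Of 11 fibrillar collagen genes 8 had a mean of at least 1 FPKM, and of 22 basement membrane genes 17, where 41.7% of all genes did.

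Elastic fibre genes were high, but elastin itself was not. Lox, the lysyl oxidase that cross-links collagen and elastin, was at 1185 to 1619, Fbln2, fibulin-2, at 699 to 974, and Efemp1, fibulin-3, at 668 to 939.8. Fbln5, which places elastin on microfibrils, was at 71.3 to 118 and Fbn1, the microfibril protein fibrillin-1, at 60.4 to 88.3. Eln, elastin, the main product of smooth muscle in the growing aorta, was at 1.36, 8.07 and 7.17, lowest in library 1. In every library Eln lay below each of these 5.

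Small proteoglycans were mainly Bgn, biglycan (1069.9 to 1318), and Prelp, an anchor of basement membrane to collagen (460.4 to 667). Igfbp7, a matrix-bound binder of insulin-like growth factors, was at 1516 to 1542, and Sparc, the collagen-binding osteonectin, at 1155 to 1447. Ecm1, extracellular matrix protein 1, was at 558, 959 and 791. Ccn2 and Ccn1, matricellular targets of the coactivator YAP, were at 572 to 875 and at 191 to 357, and Thbs1, thrombospondin-1, at 128 to 326. These last 3 were lowest in library 1. Tnc and Postn, tenascin-C and periostin, were at 31.2 to 45.98 and at 11.6 to 40.6.

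The highest genes of the protease and inhibitor list encode inhibitors. Timp2 and Timp1, inhibitors of matrix metalloproteinases, were at 1390.4 to 1802 and at 1064 to 1799.6. Cst3, the cathepsin inhibitor cystatin C, was at 661 to 938 and Serpinh1, the collagen chaperone HSP47, at 422 to 504. The metalloproteinases Mmp3, Mmp2 and Mmp14 were at 122 to 300.3, at 64.4 to 139 and at 76.4 to 114, each highest in library 1. Mmp9 was at 0 fragments in all 3. The cathepsins Ctsb and Ctsl were at 205 to 353 and at 217 to 308.

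Of 138 growth factors, cytokines and secreted regulators, 87 had a mean of at least 1 FPKM, where 41.7% of all genes did. Vegfd, a growth factor of lymphatic vessels, was at 506 to 655, whereas Vegfa, of blood vessels, was at 9.21 to 13.7. Csf1, the macrophage colony-stimulating factor, was at 344 to 532, and Adm, the vasodilator peptide adrenomedullin, at 314 to 430.4. Mif, macrophage migration inhibitory factor, was at 234 to 364, and the chemokine Cxcl12 at 58.4 to 88.01. Igfbp2, a binder of insulin-like growth factors, was at 232, 926 and 1163, lowest in library 1. Pdgfa, a ligand of Pdgfra, was at 12.5 to 18.2 while Pdgfb, the ligand of Pdgfrb, was at 0.211 to 0.686. Lcn2, lipocalin 2, which binds bacterial iron carriers, was at 23.1 to 669.9 and C3, the central complement protein, at 35.5 to 311, both lowest in library 2.

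Most transcription factors lay below 100 FPKM, as did most of all genes. By symbol pattern, 1035 genes fell into 25 families. Of these, 529 had a mean of at least 1 FPKM, 123 of at least 10 FPKM and 6 of at least 100 FPKM. Over all 25745 genes the numbers were 10744, 4138 and 510. Basic leucine zipper factors gave 22 of the 123, the basic helix-loop-helix family 16 and the zinc finger pattern, by far the widest with 503 symbols, 23. Id3 and Id1, which block helix-loop-helix factors and respond to BMP, were at 225 to 299 and at 57.1 to 59.4. Atf5 and Atf4, stress-response factors, were at 210.1 to 309 and at 53.5 to 63.6. Cebpd and Cebpb, of the acute-phase response, were at 145 to 242 and at 66.04 to 131, both lowest in library 2. Osr1, a zinc finger factor of the embryonic mesoderm, was at 259, 120.3 and 129, highest in library 1.

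Nfe2l1, a regulator of the proteasome, was at 139.9 to 146, and its small Maf partners Maff and Mafk were at 99.1 to 116 and at 53.1 to 62.01. The immediate early factors Fos, Junb and Jund were at 44.2 to 54.2, at 31.4 to 61.4 and at 46.98 to 55.3. Hmga1, an architectural protein of chromatin, was at 92.7, 71.1 and 86.6. Creb3 and Creb3l1, membrane-bound factors of the secretory pathway, were at 58.9 to 62.2 and at 46.6 to 60.9. Klf6, which responds to injury, was at 69.4, 73.9 and 77.6. Klf4, a Krüppel-like factor that represses contractile genes in modulated smooth muscle, was at 52.5, 48.9 and 54.7. Tsc22d3, a glucocorticoid-induced leucine zipper, was at 43.1, 51.5 and 52.2. Zfp36l2, at 60.2, 65.5 and 63.9, entered by its zinc finger symbol but binds mRNA.

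Of 98 factors with a known role in smooth muscle or its modulation, 80 had a mean of at least 1 FPKM. Srf, serum response factor, was at 14.1 to 18.6, and its coactivators Mrtfa and Mrtfb were at 9.895 to 17.5 and at 2.57 to 3.44. Myocd, myocardin, was at 0.664, 2.36 and 1.69. Srf thus stood above Myocd in every library. Hand2 and Gata6, factors of cardiovascular development, were at 27.2 to 71.5 and at 15.8 to 24.7, both highest in library 1. Wwtr1, the coactivator TAZ, was at 22.8 to 38.1, and Prrx1 and Twist1, factors of mesenchyme, were at 15.1 to 21.01 and at 12.1 to 15.8. Klf15, a factor that limits fibrosis, was at 37.03, 37.2 and 37.2. Heyl, a Notch target, was at 0 fragments in all 3 libraries, and Hey1 reached at most 0.161 FPKM.

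**Figure D4:**
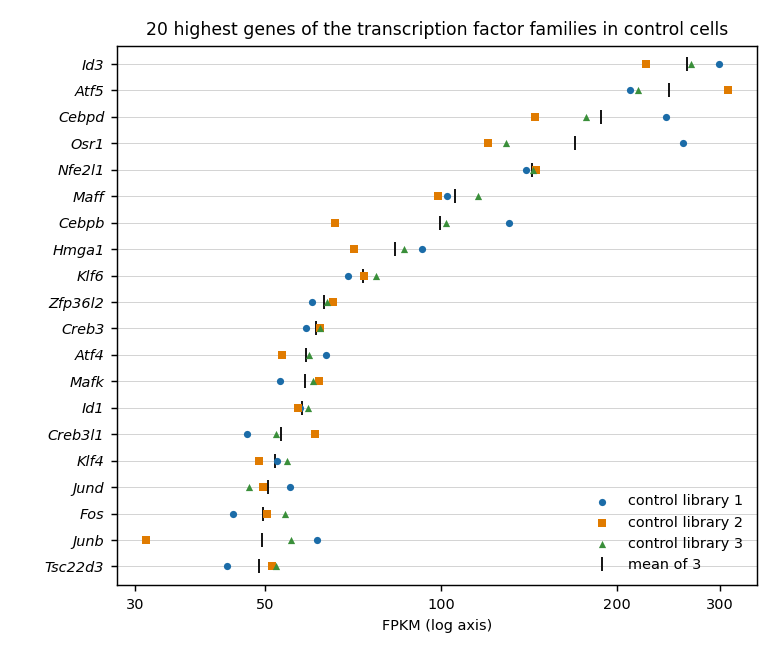
FPKM on a log axis of the 20 highest genes of the transcription factor families, one marker shape per control library and a bar for the mean. Id3 leads at 225 to 299 FPKM, and Junb spans 31.4 to 61.4 FPKM.

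Cell cycle genes were high for inhibitors and low for mitosis. Cdkn1a, Cdkn2a and Cdkn2b, which encode inhibitors of cyclin-dependent kinases and are linked to growth arrest, were at 102 to 124, at 80.3 to 120.3 and at 22.8 to 42.1. The cyclins Ccnd1 and Ccnd2, of the G1 phase, were at 78.1 to 145 and at 44.7 to 78.4. Mki67, present in cycling cells, was at 0.372 to 1.09, Top2a, of mitotic chromosomes, at 1.96 to 3.36 and Cdk1, the mitotic kinase, at 3.24 to 4.79. These 3 were highest in library 3. The housekeeping gene Ppia varied by 3.34% (coefficient of variation, n = 3) and Ywhaz by 5.38%, less than Actb at 17.2% and B2m at 47.4%.

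Most genes averaging at least 10 FPKM differed by less than 2-fold between libraries, but by more than counting error. Among these 4138 genes the median coefficient of variation was 12.2%, against a counting error of 2.54% at these fragment numbers. The coefficient was above the counting error in 3960 of the 4132 genes with an exon length. Of the 4138 genes, 1584, or 38.3%, lay within 1.2-fold. Across these genes Pearson's r of log2(FPKM + 1) was 0.923 for libraries 1 and 2, 0.964 for 1 and 3, and 0.962 for 2 and 3, where genes are not independent replicates. The steadiest were Tns2, an adhesion tensin (69.3 in each library), Hdgf, a secreted and nuclear growth factor (119 in each), Phldb1, a microtubule anchor at adhesions (22.1 to 22.2), and Klf15. The other 6 of the 10 steadiest were Gid8, Trim11, Lzts2, Eif2b1, Gna11 and Tmem19, all within 0.016 on the log2 scale. They were picked as the smallest of 4138 ranges.

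A difference of more than 2-fold between highest and lowest library, on the log2(FPKM + 1) scale, was found for 247 of the 4138 genes, 5.97%. Libraries 1 and 2 were the extremes: 147 of the 247 genes were highest in library 1 and 135 lowest in library 2. Over all 10744 genes averaging at least 1 FPKM, 39.1% were highest in library 1 and 43.1% lowest in library 2. Without library 1 the number of genes with a more than 2-fold difference was 67, without library 2 it was 83, and without library 3 it was 209. The 15 widest genes fell into contractile genes that were low in library 1, interferon and acute-phase genes that were low in library 2, and a pair of genes with near-identical copies.

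Among the interferon and acute-phase genes the widest difference was that of Saa3, the inflammatory serum amyloid A3, at 264, 0.0443 and 25.02. Slfn2, a growth regulator of immune cells, was at 1.14 to 58.9 and Lcn2 at 669.9, 23.1 and 288. Ccl8, a monocyte chemokine, was at 25.4, 0 and 7.298, its value of 0 in library 2 standing for 0 fragments. Steap4, a metalloreductase of inflamed tissue, was at 27.5, 0.201 and 9.22. Serpina3i, a relative of Serpina3n, was at 21.5, 1.06 and 11.4. Isg15, a ubiquitin-like modifier induced by interferon, was at 137, 7.799 and 119. Ifit1, a sensor of viral RNA, was at 42.4, 1.28 and 24.5. Zbp1, a nucleic acid sensor, was at 0.638 to 33.5, and Usp18, which removes Isg15 from proteins, at 0.745 to 20.2. Each of these 10 genes was highest in library 1 and lowest in library 2. Of the 17 listed interferon and inflammation genes averaging at least 1 FPKM, 15 were lowest in library 2, against 43.1% of all genes, and the number was the same under both rescalings. Here too the filter used the mean of the same libraries, and the rescaling factors differed little. The summed level of all 22 listed genes was 2370.2, 383 and 1259 FPKM. Bst2, the antiviral tetherin, was at 53.7 to 499, whereas Nfkbia, the inhibitor of NF-κB, was at 37.9 to 49.8 and Ptgs2, cyclooxygenase-2, at 13.6 to 25.1, highest in library 3.

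Promoter windows of 3 of these genes are shown because they hold the interferon-type element GAAANNGAAA, a core of interferon-stimulated response elements, searched on both strands. RefSeq sequences of GRCm38.p6 are given on the gene's strand with matches in capitals. Isg15 is shown at chr4:156200849-156200918 on the minus strand, from -100 to -31 of its start site. Ifit1 is shown at chr19:34640759-34640838 on the plus strand, from -130 to -51, and Saa3 at chr7:46715767-46715826 on the minus strand, from -150 to -91.
Isg15: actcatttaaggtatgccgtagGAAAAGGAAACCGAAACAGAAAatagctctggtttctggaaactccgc
Ifit1: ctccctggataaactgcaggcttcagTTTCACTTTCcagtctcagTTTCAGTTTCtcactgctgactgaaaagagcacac
Saa3: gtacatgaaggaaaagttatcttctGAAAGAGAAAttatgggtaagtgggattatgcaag
In Isg15 there are 3 overlapping matches, in Ifit1 there are 2 on the opposite strand and in Saa3 there is 1. The element was found in 3.44% of all 32851 promoter windows, in 6 of the 15 listed interferon and inflammation genes with an entry, and in 1 of the 28 contractile genes, Mylk.

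The same-numbered libraries of the other 3 groups are described without a test. Acta2 lay between 128 and 245 FPKM in the 3 other libraries numbered 1, between 580.1 and 696 in those numbered 2, and between 744 and 1081 in those numbered 3. Myh11 lay between 1.32 and 2.58 FPKM in the libraries numbered 1 and at 12.2 FPKM or more in the others. Saa3 lay between 0.105 and 6.92 FPKM in the libraries numbered 2 and at 10.4 FPKM or more in the others. Of the 31 contractile genes, 29, 30 and 26 were lowest in the library numbered 1 of the calcification, Klotho and vector groups. Of the 17 interferon and inflammation genes, 15 were lowest in library 2 of the control group, and 11, 14 and 11 in the library numbered 2 of those groups. In the control group 14 of the 17 were highest in library 1, against 10, 13 and 6 in the library numbered 1 of those groups. What the numbers mark is not given in the labels.

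**Figure D5:**
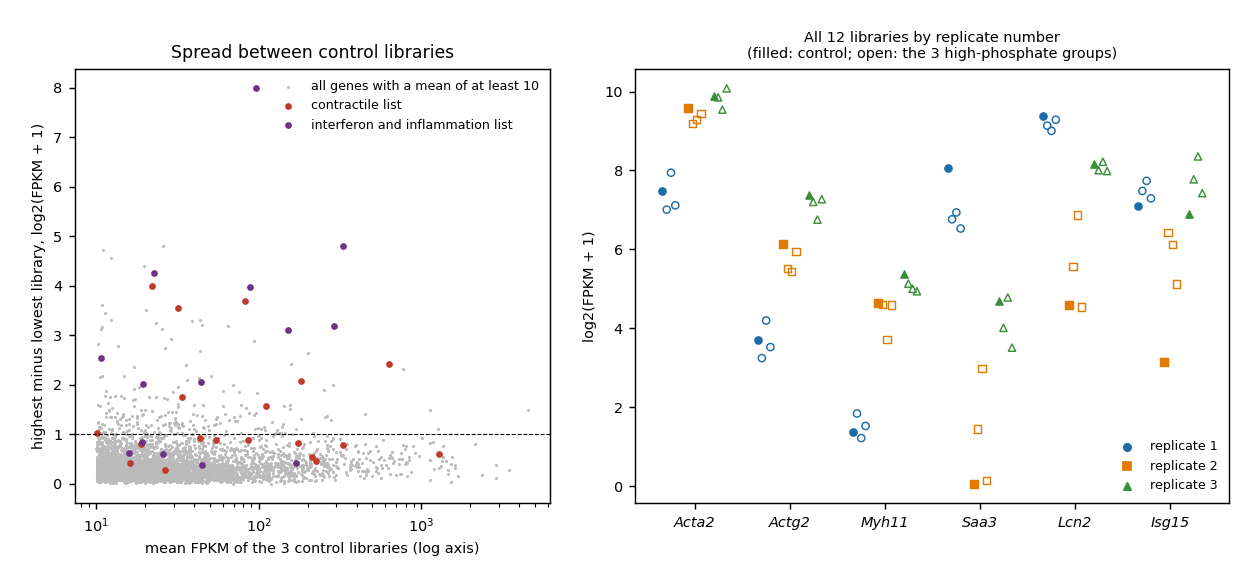
Left, the difference between the highest and lowest control library in log2(FPKM + 1) against mean FPKM on a log axis for 4138 genes, with 2 gene lists coloured and a dashed line at a 2-fold difference; right, log2(FPKM + 1) of 6 genes in all 12 libraries by replicate number, control filled. Replicate 1 is lowest for Acta2, Actg2 and Myh11 in all 4 groups, and replicate 2 is lowest for Saa3, Lcn2 and Isg15.

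The remaining pair among the 15 widest, Gm10705 (2.41 to 37.8) and Rpl30-ps10 (5.54 to 64.2), are copies of other genes, with 7 and 12 further genes whose transcripts match at 95% identity over at least 50% of their length. Fragments of such copies cannot be placed with certainty, so these levels are uncertain. Among the 30 most abundant genes, Eef1a1 has 7 such copies, Ftl1 5, Rplp1 and Rplp0 3 each, S100a11 2, and mt-Co1 and Hspb1 1 each.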

How the data were processed

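RNA of 12 libraries was sequenced, and the 3 control libraries (wild-type cells, basal medium) were described here. The authors deposited 1 table of FPKM values per gene, whose header names no unit: multiplied by the GENCODE M21 exon length, 98.1% to 98.2% of the control values under 100 fragments were whole within 0.05, and 99.2% of genes matched a length. The submitters' processing notes name STAR 2.4, CASAVA 1.8.2 and DESeq2 3.12, and the builds GRCm38 and GRCm39. How fragments were counted, on which annotation and whether by strand, is not given in the sources used here.

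No test was run, since there is 1 group of 3 libraries. Depth was recovered as the fragment number that makes low values whole, with Python 3.11.15, numpy 2.4.6 and pandas 2.3.3. This step was tested on simulated data. Spread is the highest minus the lowest library in log2(FPKM + 1), for genes averaging at least 10. A value of 0 allows up to 3 fragments, which covers counting error only. Near-identical copies were sought with BLAST+ 2.17.0 among GENCODE M21 transcripts. Promoters and motifs come from the RefSeq table of GRCm38.p6, 250 bases before to 50 after each start.

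Gene lists and the named genes were chosen with earlier results of these data known. Named are the 3 markers and the actins, the 30 highest genes, up to 8 highest members of each list and members near 0, the 20 highest transcription factors, the 15 widest and 10 steadiest genes, and the defining markers of other cell types. Further list members, and Vcl, Gm48529 and Pcsk7, were chosen after their values were seen. A few genes that this rule names, 1 of the 30 highest among them, are not reported here. Alternatives covered the scaling, thresholds, the pseudocount, the filter and each library left out.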

Additional observations from a re-analysis of the deposited data

How the results depend on the processing

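Rescaling the libraries to TPM-like equal sums, which multiplies all values by a factor between 3.22 and 3.44, moved the mean of Acta2 to 2151, of Tagln to 20.3 and of Mgp to 3917, and the number of transcription factors averaging at least 10 from 123 to 311. A threshold of 5 FPKM left 6311 genes. The number of genes with a more than 2-fold spread rose from 247 to 810 with a mean of at least 1 as filter and to 1119 with none. Leaving out 1 library at a time gave 67 to 209 such genes. The other 33 values under the alternatives stayed within 1.5 times the count, or within 1 SD between libraries. These include the orders of libraries for the contractile, interferon and macrophage lists, which were added after the data were seen. For the means of Acta2, Tagln and Mgp with 1 library left out, the limit of 1 SD could not be passed. That SD comes from the same 3 values, so these results do not show stability. The mean of Acta2 was 858 without library 1 and 470 without library 3.

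No paired analysis was possible because no groups were compared. With 3 libraries a spread is itself poorly known, and library 2 holds few genes under 6 fragments, so levels well below 1 FPKM should be compared between libraries with care. FPKM is relative to each library's total, so it does not give RNA per cell.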

Other observations

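The 3 control libraries carried male-linked RNA. Ddx3y, an RNA helicase of the Y chromosome, was at 4.02, 8.203 and 4.72 FPKM in libraries 1, 2 and 3, and Eif2s3y, a translation factor subunit of the same chromosome, at 3.67, 3.94 and 5.097 FPKM. Xist, which silences the inactive X, was at 0 fragments in each, which allows at most 0.00977 FPKM in library 1.

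Position along the body axis is recorded by Hox genes, of which 21 of 35 had a mean of at least 1 FPKM, where 41.7% of all genes did. Hoxa5 was the highest at 11.5, 20.6 and 16.6 FPKM and Hoxb6 followed with 8.39, 15.7 and 10.8 FPKM. Hoxa7, Hoxb7, Hoxb4, Hoxc6 and Hoxb9 had means between 6.05 and 8.42 FPKM. In library 1 Hoxb7, at 9.54 FPKM, stood above Hoxb6, at 8.39 FPKM.

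Kl, which encodes αKlotho, was at 0 fragments in all 3 control libraries, which allows at most 0.0188 FPKM in library 1. Fgf23, the hormone for which Klotho is a coreceptor, was at 0.387, 0 and 0.418 FPKM.

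Gapdh, a glycolytic enzyme often used as a reference gene, was listed at only 8.73, 0.545 and 1.17 FPKM. The M21 annotation holds 71 other genes whose transcripts match that of Gapdh at 95% identity over at least 50% of its length, and the 69 of them in the table summed to 456, 455 and 438 FPKM. Other glycolytic or reference genes with few or no such copies were high: Pgk1 was at 722, 389 and 622 FPKM and Ppia at 159, 166 and 170.2 FPKM. How fragments that match several genes were counted is not given in the sources used here, and its part in the low Gapdh value was not tested.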
